A study of Mus musculus with 6 samples.

Results

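The 10 genes described here are the 4 Notch receptors (Notch1, Notch2, Notch3 and Notch4), 3 of their membrane-bound ligands (Dll4, Jag1 and Jag2) and 3 transcriptional targets (Hes1, Hey1 and Heyl). They were taken by gene symbol from a table of 45038 mouse genes, and each symbol matched 1 row. The table holds FPKM, which scales sequenced fragments to the length of the transcript and to how many fragments a library holds. It covers 6 libraries of cells sorted from the hearts of C57BL/6 mice that carried Tie2-Cre together with Rosa-LSL-tdTomato, so that cells with present or past activity of the Tie2 promoter were red. That promoter is active in endothelium and also in part of the blood lineage. The 3 MI libraries came from infarct tissue 3 weeks after ligation of the left anterior descending coronary artery in mice aged 6 to 8 weeks at surgery. The 3 Normal libraries came from left ventricle of mice of the same genotype without that surgery. The protocol shared by both groups gives 6 to 8 weeks for them too, and no separate age of the Normal mice is stated. In both groups the sorted cells were tdTomato-positive and lacked F4/80, a macrophage antigen. The titles number the libraries of each group Ms1535, Ms1537 and Ms1608, and nothing in the labels says that equal numbers mark the same mouse or that the libraries of a group came from separate mice, so p-values measure only the spread between these libraries.

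Notch receptors are single-pass membrane proteins that are activated by ligands on a neighbouring cell. Ligand binding leads to cleavage of the receptor by ADAM metalloproteases and then by gamma-secretase, and the freed intracellular domain binds the DNA-binding protein RBPJ to switch on repressor genes of the Hes and Hey families. In blood vessels the endothelial ligand Dll4 and the receptors Notch1 and Notch4 restrain tip cell formation and set arterial identity, Notch3 acts mainly in pericytes and smooth muscle, and Notch2 is also used by blood cells, among them B cells and myeloid cells.

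The libraries held an implied 34.8 to 48.5 M fragments (M, mega), read from the steps between low FPKM values, whereas the labels state a rounded figure in other units that could not be reconciled with it. One library stood apart. Normal Ms1608 correlated with the other libraries at 0.544 to 0.685 across the tested genes (log2 scale), which only describes the libraries, since genes are not replicates. The 15 pan-endothelial markers summed to 14.7 FPKM in Normal Ms1608, while the other Normal libraries had 1350 (Ms1535) and 946 (Ms1537) and MI had 289 to 1171. The 12 pan-leukocyte markers summed to 4235 FPKM in Normal Ms1608, against 306 and 463 in the other Normal libraries and 2363 to 2656 in MI. No marker of either list was listed at 0 in any library. In Normal Ms1608, 3 of the 15 endothelial markers reached 1 FPKM, and Kdr, the main VEGF receptor, was at 0.486 FPKM, so this library lacked most of the endothelial RNA its label leads one to look for. Differences that it moves by more than 1.5 times are given with and without it. In sorted bulk RNA, fewer cells of a type and less RNA per cell cannot be told apart.

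Promoter sequences are shown for Notch2, Notch4 and Dll4. Notch2 and Notch4 were the receptors with the highest mean FPKM and had opposite patterns across the Normal libraries. Dll4 was the ligand with the highest mean FPKM. By the GENCODE annotation of GRCm38, Notch2 lies at chr3:98013527-98150361, Notch4 at chr17:34564268-34588503 and Dll4 at chr2:119325784-119335962, all on the plus strand and protein-coding. RefSeq promoter windows on GRCm38.p6 were found for 7 of the 10 members, and Hes1, Hey1 and Heyl had none. The stretches run from the base 250 upstream of the RefSeq start to the RefSeq start or the GENCODE gene start, whichever comes first, at chr3:98013288-98013526 (plus strand) for Notch2, chr17:34564045-34564267 (plus strand) for Notch4 and chr2:119325534-119325783 (plus strand) for Dll4. Capitals mark GGAAG or its reverse complement CTTCC, a longer form of the GGAA core bound by ETS factors. The endothelial regulators ERG and FLI1 belong to that family. GGAA followed by other bases was neither marked nor counted.
Notch2: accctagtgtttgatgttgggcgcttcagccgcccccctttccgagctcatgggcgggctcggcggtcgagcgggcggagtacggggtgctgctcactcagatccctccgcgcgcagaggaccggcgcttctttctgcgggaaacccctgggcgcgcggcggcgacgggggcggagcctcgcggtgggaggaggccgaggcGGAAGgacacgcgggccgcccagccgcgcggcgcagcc
Notch4: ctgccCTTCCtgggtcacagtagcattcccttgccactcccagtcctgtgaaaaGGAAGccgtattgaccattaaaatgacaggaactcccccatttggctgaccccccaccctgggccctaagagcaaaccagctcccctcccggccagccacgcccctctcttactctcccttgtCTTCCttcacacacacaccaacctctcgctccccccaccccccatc
Dll4: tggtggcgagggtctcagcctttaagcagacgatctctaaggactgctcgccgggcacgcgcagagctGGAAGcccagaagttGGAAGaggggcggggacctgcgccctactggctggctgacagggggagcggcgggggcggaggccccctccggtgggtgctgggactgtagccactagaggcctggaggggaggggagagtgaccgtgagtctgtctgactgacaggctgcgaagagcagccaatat
GGAAG, on either strand, occurred 3 times in the Notch4 stretch, 2 times in that of Dll4 and 1 time in that of Notch2. It was in none of the other 4 stretches (Notch1, Notch3, Jag1 and Jag2), and 64.1% of all 32851 RefSeq promoter windows cut to 250 bases hold it at least once. TGGGAA or TTCCCA, the core bound by RBPJ, was in none of the 7 members' stretches, and 21.6% of all windows hold it. These matches describe letters and say nothing of binding.

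FPKM is per length and so allows levels of different genes to be set side by side. By their mean FPKM over the 6 libraries the members fell into 3 tiers. Notch2 (12.2 ± 8.89 FPKM, SD, n = 6 libraries), Hey1 (11.9 ± 8.44) and Hes1 (11.2 ± 5.18) came first, and their order did not hold, since Notch2 exceeded Hey1 in 3 of 6 libraries and Hey1 exceeded Hes1 in 4. Notch4 followed at 5.30 ± 4.26 FPKM. Hes1 exceeded it in 6 of 6 libraries, and it exceeded Dll4 in 6 of 6. The tiers did not hold within every library. Notch4 exceeded Notch2 in Normal Ms1535 and Ms1537, and it exceeded Hey1 in MI Ms1537 and Normal Ms1608. Dll4 (0.968 ± 1.05 FPKM), Notch1 (0.839 ± 0.534), Heyl (0.747 ± 0.688), Jag1 (0.650 ± 0.464) and Jag2 (0.395 ± 0.448) lay close together, within their spreads. Notch3 was lowest at 0.112 ± 0.0831 FPKM. Hey1 was the highest member in MI Ms1535, Normal Ms1535 and Normal Ms1537, Hes1 in MI Ms1537, and Notch2 in MI Ms1608 and Normal Ms1608. Normal Ms1608 held the lowest value of 7 of the 10 members (Notch3, Notch4, Dll4, Jag1, Jag2, Hey1 and Heyl) and the highest of Notch2. Among all 10168 tested genes it held the lowest value of 44.1% and the highest of 26.8%. Of the 6 members tested there, it held the lowest value of 3 (50%) and the highest of 1 (16.7%), shares not far from those of all tested genes.

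**Figure D1:**
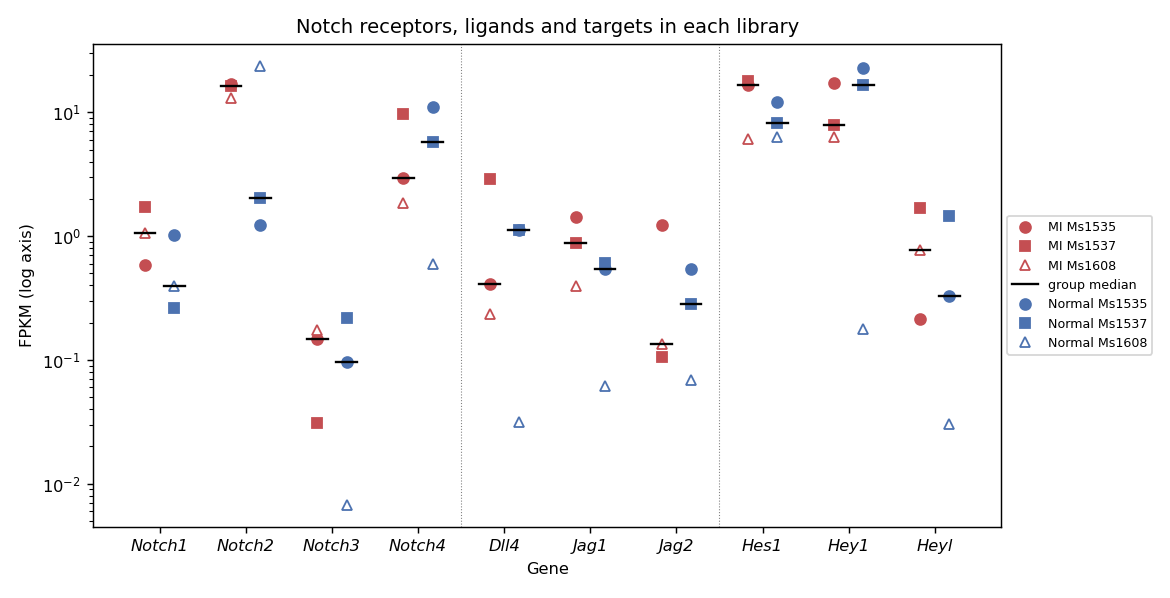
FPKM of each of the 10 members (x axis) on a log axis (y axis), with 1 point per library, MI in red and Normal in blue, the Ms1608 libraries as open triangles, and a bar at each group's median. The triangle of Normal Ms1608 is the highest Notch2 value, at 23.7 FPKM, and the lowest value of 7 other members.

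The 2 most abundant receptors ran opposite ways across the Normal libraries, but not across the MI ones, where Ms1608 was lowest for both. Notch2, which pairs with both Delta-like and Jagged ligands, was high throughout MI and in 1 Normal library. Its values were 16.8, 16.4 and 13.0 FPKM in the MI libraries (Ms1535, Ms1537 and Ms1608, the order kept from here on) and 1.22, 2.02 and 23.7 FPKM in the Normal ones. The 3 MI values were close together and lay above those of Normal Ms1535 and Ms1537 and below that of Normal Ms1608, so the groups overlapped. With all 6 libraries the difference (MI minus Normal, as log2 of FPKM + 1) was 1.57 (SE 0.94, 95% interval -0.51 to 3.66, limma adjusted p = 0.399). Without Normal Ms1608 it was 2.66 (SE 0.48, interval 1.58 to 3.74, limma adjusted p = 0.0280), a 6.30-fold difference on that scale, and Notch2 was then called higher. In that comparison 4.45% of tested genes were called higher and 52.6% had MI values above both Normal values, so neither sets Notch2 apart from many other genes. Further alternatives without Normal Ms1608 were added after the data were seen. The difference was then 1.88 with median-ratio, 1.81 with upper-quartile and 1.71 with quantile scaling (limma adjusted p = 0.112, 0.117 and 0.147), and the call was lost in each. It was also lost with a pseudocount of 5 (adjusted p = 0.0677) and with no filter (0.148), and held with a pseudocount of 0.1 (0.0195). With sample weights, which gave Normal Ms1608 a weight of 0.117 against 0.738 to 2.66 for the others, Notch2 was called at an adjusted p of 0.00473 by limma, in a fit that called 31.6% of tested genes higher and 0.777% lower (46.2% and 1.45% at an unadjusted p under 0.05). Under every other setting tried with all 6 libraries, or without any single library other than Normal Ms1608, its adjusted p stayed above the threshold.

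Notch4, a receptor largely restricted to endothelium, was low where endothelial markers were low. It had 2.95, 9.64 and 1.85 FPKM across MI and 11.0, 5.79 and 0.597 FPKM across Normal, in the same order of libraries. Values of both groups were interleaved, with the highest and the lowest both in Normal. The difference was -0.04 (SE 0.89, interval -2.02 to 1.94, limma adjusted p = 0.989) with all 6 libraries and -0.87 (SE 0.66, interval -2.36 to 0.62, limma adjusted p = 0.356) without Normal Ms1608.

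Notch1, the receptor that Dll4 engages in sprouting vessels, stayed low in every library. It had 0.581, 1.70 and 1.07 FPKM across MI and 1.03, 0.263 and 0.396 FPKM across Normal. MI Ms1537 was highest and Normal Ms1537 lowest, and the groups overlapped (difference 0.43, SE 0.37, limma adjusted p = 0.548). Notch3, the receptor of mural cells, was below the expression filter, at 0.146, 0.0307 and 0.176 FPKM across MI and 0.0966, 0.218 and 0.00676 FPKM across Normal. The last value stands for about 2 fragments (exact 95% Poisson interval 0.242 to 7.22, counting error only). In the fit without a filter its difference was 0.02 (SE 0.09, limma adjusted p = 0.953), or -0.05 without Normal Ms1608 (limma adjusted p = 0.747). Mural markers were low as well: the 12 markers of pericytes and smooth muscle summed to 27.0 to 43.6 FPKM in MI, to 37.4 (Ms1535) and 37.9 FPKM (Ms1537) in these Normal libraries and to 1.35 FPKM in Normal Ms1608. Among them Pdgfrb, the PDGF-B receptor, was at 4.10, 10.6 and 0.975 FPKM across MI and 0.854, 0.361 and 0.0407 FPKM across Normal, and Rgs5, a pericyte regulator of G protein signalling, at 7.14, 3.67 and 7.09 FPKM and 20.6, 17.1 and 0.306 FPKM. Myh11 was listed at 0 in Normal Ms1535, Cnn1 in Normal Ms1537, and Ndufa4l2 in both Ms1608 libraries. The part of mural RNA in the Notch3 values was not tested.

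Shares of the summed receptor FPKM within a library do not depend on scaling between libraries, and they put the same contrast in 1 number. Notch2 made up 82.1%, 59.1% and 80.8% of the 4 receptors in MI Ms1535, Ms1537 and Ms1608. It made up 9.18% and 24.4% in Normal Ms1535 and Ms1537, where Notch4 made up 82.4% and 69.8%. In Normal Ms1608 Notch2 made up 95.9% and Notch4 2.42%. The ratio of Notch2 to Notch4 FPKM was 5.70, 1.70 and 7.02 in MI and 0.111, 0.349 and 39.6 in Normal. All MI ratios lay above 1, and the Normal ratios lay on both sides of the MI range. These shares were chosen after the values were seen and carry no test.

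**Figure D2:**
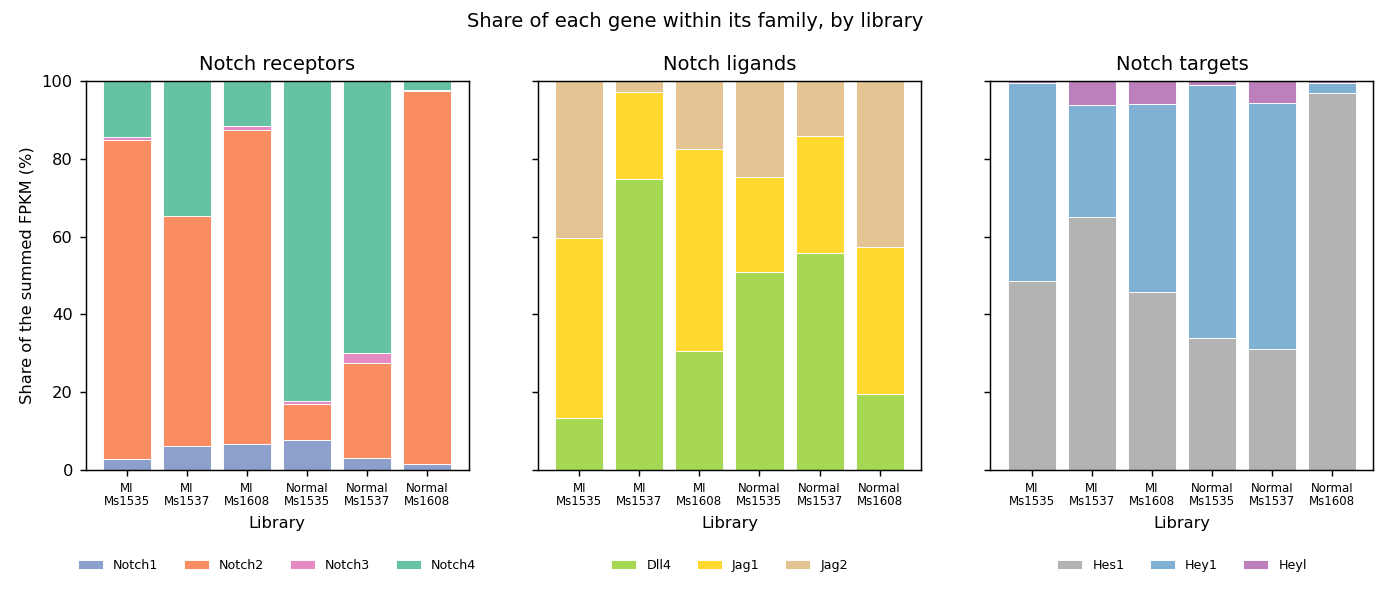
Share of the summed FPKM (y axis, percent) of the receptors, ligands and targets described here that each gene held in each library (x axis). Notch2 holds 59.1% to 82.1% of receptor FPKM in MI and 95.9% in Normal Ms1608, whereas Notch4 holds 82.4% and 69.8% in Normal Ms1535 and Ms1537.

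Markers of 2 cell classes moved with these receptors. Notch2 lay below the mean log2(FPKM + 1) of the 12 pan-leukocyte markers in every library, with offsets of -1.91, -2.22 and -2.63 in MI and -2.01, -1.94 and -2.10 in Normal. The offset spanned 0.72 log2 units over the 6 libraries. For the other members it spanned 3.68 to 7.90. The leukocyte mean itself ran from 3.16 (Normal Ms1535) to 6.72 (Normal Ms1608). A member near 0 in every library therefore had a wide offset whatever its pattern, so these widths do not rank the low members. The ratio of Notch2 to Ptprc, the leukocyte antigen CD45, was 0.245, 0.211 and 0.172 in MI and 0.391, 0.429 and 0.136 in Normal. Notch4 lay below the mean of the 15 pan-endothelial markers, with offsets of -1.63, -1.50 and -1.33 log2 units in MI and -1.25, -1.44 and -0.05 in Normal. Outside Normal Ms1608, where that mean was itself 0.72, the offset thus ranged from -1.63 to -1.25. The ratio of Notch4 to Cdh5, 1 of the 15 endothelial markers, was less even. It was 0.107, 0.122 and 0.285 in MI and 0.273, 0.235 and 0.497 in Normal. Of the members, Notch4 had the narrowest range of offsets to the endothelial markers over the 6 libraries, at 1.58 log2 units. The endothelial mean ran from 0.72 (Normal Ms1608) to 4.91 (MI Ms1537), so the same limit on low members applies. A narrow range was not particular to these pairs. The mean of the mural markers ran only from 0.14 (Normal Ms1608) to 1.54 (MI Ms1537). Widths of the offsets to it went from 0.65 (Jag1) to 4.65 (Notch2) log2 units, with 1.82 for Notch4. The 10 fibroblast markers summed to 5338, 5889 and 1178 FPKM in MI. In Normal they summed to 908, 1115 and 170 FPKM, each below every MI sum. The part of leukocyte, endothelial or fibroblast RNA in the differences between MI and Normal was not tested.

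**Figure D3:**
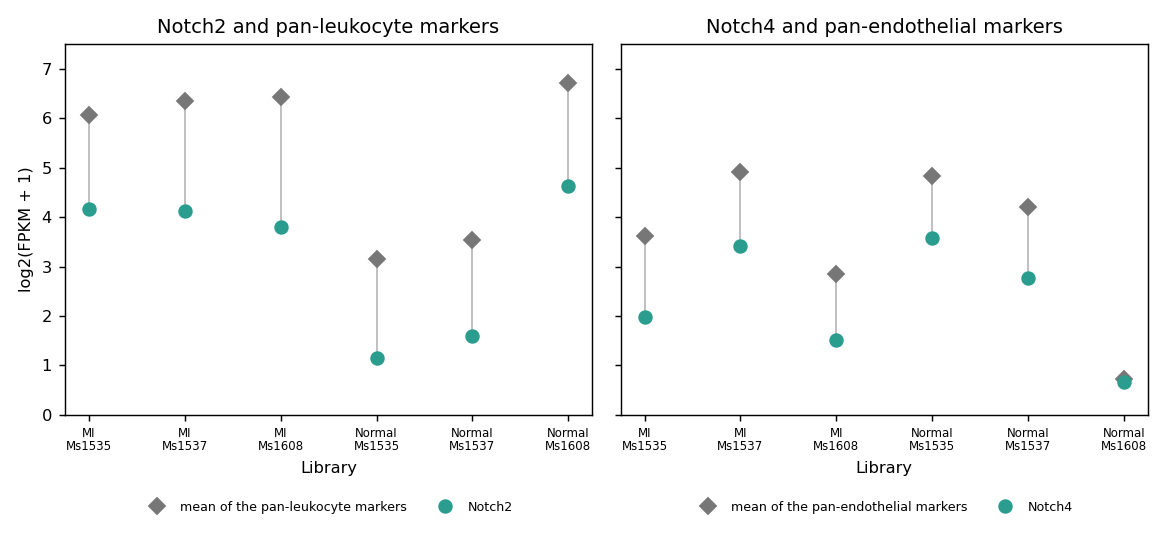
log2(FPKM + 1) (y axis) of Notch2 beside the mean of the pan-leukocyte markers, left, and of Notch4 beside the mean of the pan-endothelial markers, right, in each library (x axis), with grey lines for the offset. The Notch2 offset lies between -2.63 and -1.91 in all libraries, and the Notch4 offset between -1.63 and -1.25 outside Normal Ms1608.

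The ligands were low in every library, and none was called between the groups. Dll4, the endothelial ligand of tip and arterial cells, had 0.409, 2.89 and 0.234 FPKM across MI and 1.13, 1.11 and 0.0313 FPKM across Normal. Normal Ms1535 and Ms1537 were nearly equal, MI Ms1537 lay above them and the other 2 MI libraries below. The value in Normal Ms1608 stands for about 4.2 fragments (exact 95% Poisson interval for 4, 1.09 to 10.2). The difference was 0.18 (SE 0.51, interval -0.95 to 1.31, limma adjusted p = 0.876) and turned to -0.17 without Normal Ms1608 (adjusted p = 0.823). Jag1, a ligand that endothelial cells present to neighbouring mural cells, had 1.43, 0.872 and 0.398 FPKM across MI and 0.542, 0.601 and 0.0612 FPKM across Normal. MI Ms1535 and Ms1537 lay above all Normal values and MI Ms1608 did not. Jag2, a further Jagged ligand, had 1.24, 0.106 and 0.134 FPKM across MI and 0.546, 0.281 and 0.0687 FPKM across Normal, so that 1 MI library stood above the rest and the other 2 below both Normal Ms1535 and Ms1537. Both Jagged genes were below the filter. In the fit without a filter their differences were 0.43 (SE 0.42, limma adjusted p = 0.656) and 0.14 (SE 0.35, limma adjusted p = 0.866). Without Normal Ms1608 they were 0.24 (limma adjusted p = 0.754) and 0.0031 (limma adjusted p = 1). Dll4 made up 50.9% and 55.8% of the 3 ligands in Normal Ms1535 and Ms1537, 74.7% in MI Ms1537, 13.3% and 30.6% in MI Ms1535 and Ms1608, and 19.4% in Normal Ms1608. Per unit of Jag1, Dll4 was at 0.287, 3.32 and 0.588 in MI and 2.08, 1.86 and 0.512 in Normal, with no separation of the groups.

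Among the targets, Hes1 varied least and Hey1 most over all 6 libraries, by the highest value over the lowest. Hes1, a repressor that many cell types use downstream of Notch, had 16.5, 18.0 and 6.04 FPKM across MI and 12.0, 8.15 and 6.37 FPKM across Normal. Its highest value was 2.98 times its lowest, the smallest range of the 10 members, and MI Ms1608 lay below all Normal libraries. The difference was 0.47 (SE 0.71, interval -1.10 to 2.05, limma adjusted p = 0.756) and 0.28 without Normal Ms1608 (limma adjusted p = 0.722). Hey1, the Hey family repressor of arterial endothelium, had 17.3, 7.94 and 6.36 FPKM across MI and 22.9, 16.6 and 0.178 FPKM across Normal. Its highest value was 129 times its lowest, the widest range of the members, and the lowest, in Normal Ms1608, stands for about 15 fragments. That rank rested on Normal Ms1608. Outside that library Hey1 ran from 6.36 to 22.9 FPKM, and Heyl, from 0.212 to 1.69 FPKM, had the wider relative range. The difference was 0.43 (SE 1.10, interval -2.03 to 2.89, limma adjusted p = 0.866) with all 6 libraries and -0.95 (SE 0.54, interval -2.18 to 0.28, limma adjusted p = 0.245) without Normal Ms1608. With all 6 libraries it also turned negative under median-ratio (-0.39), upper-quartile (-0.35) and quantile scaling (-0.81). The sign for Hey1 thus depended on Normal Ms1608 and on the scaling. Heyl, a Hey family repressor known from smooth muscle, was below the filter. It had 0.212, 1.69 and 0.767 FPKM across MI and 0.327, 1.46 and 0.0305 FPKM across Normal, with both Ms1537 libraries highest, and its difference in the fit without a filter was 0.26 (SE 0.54, limma adjusted p = 0.827), or -0.011 without Normal Ms1608 (limma adjusted p = 1). The ratio of Hey1 to Hes1 was 1.04, 0.442 and 1.05 in MI, below the 1.91 and 2.03 of Normal Ms1535 and Ms1537 and above the 0.0280 of Normal Ms1608.

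In the test across all genes, 6 of the 10 members passed the filter of at least 1 FPKM in at least 3 libraries (Notch1, Notch2, Notch4, Dll4, Hes1 and Hey1). With all 6 libraries 0 of the 6 were called by limma at an adjusted p under 0.05, and 0 had an unadjusted p under 0.05. Of the 10168 genes tested, 0.00983% were called higher and 0% lower, and 16.1% were higher and 0.207% lower at an unadjusted p under 0.05. No member had groups that did not overlap, where 25% of tested genes had all MI values above all Normal values and 0.354% all below. The median difference of the 6 members was 0.43, against 0.78 for all tested genes. Without Normal Ms1608 1 of the 6, Notch2, was called higher and 0 lower, where 4.45% of tested genes were called higher and 0.0688% lower (30.8% and 0.738% at an unadjusted p under 0.05, and 52.6% and 1.75% without overlap of the groups), and the median of the 6 was 0.06, against 0.83 for all tested genes. The shift of all genes depends on scaling: median-ratio scaling left 0.0039, upper-quartile scaling 0.20 and quantile scaling -0.05. Dll4, Hes1 and Hey1 turned negative under each of these, Notch1 under quantile scaling, and Notch2 stayed positive under all 3. Members that passed the filter may differ from those that did not, so these medians are not those of all 10 members.

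**Figure D4:**
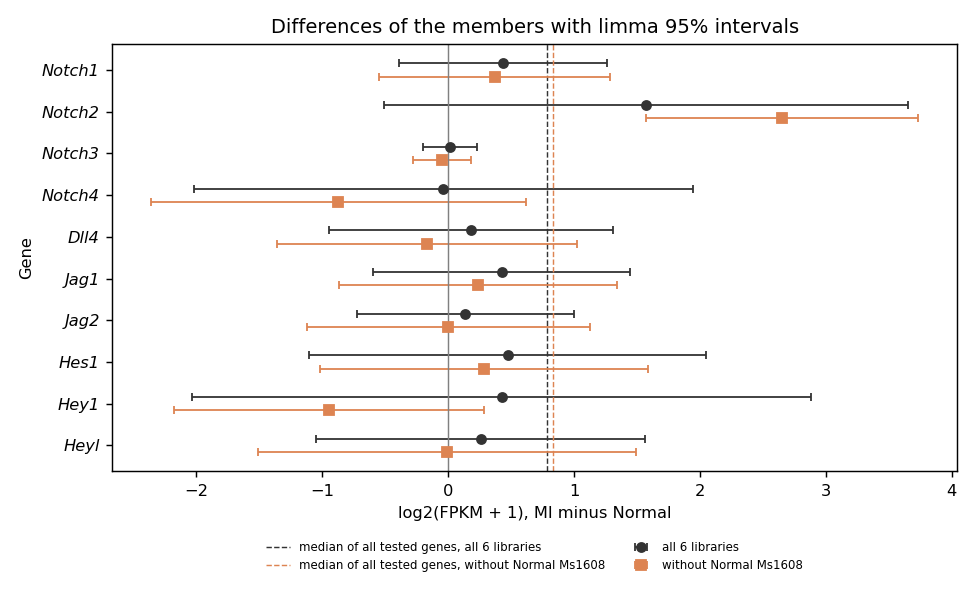
Difference of each member (y axis) between MI and Normal on the log2(FPKM + 1) scale (x axis), with limma 95% intervals, with all 6 libraries (black) and without Normal Ms1608 (orange), and dashed lines at the median of all tested genes. Jag1, Jag2, Notch3 and Heyl come from the fits without a filter, and Notch2 without Normal Ms1608, at 2.66, is the value whose interval lies farthest above 0.

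Which genes had the most similar patterns was asked of the 6 tested members, by the root mean square difference of log2(FPKM + 1) over the 6 libraries after each gene was centred on its own mean. Genes with Gm, Rik, mitochondrial, small RNA or pseudogene symbols, or symbols that start with a digit, were left out. The 3 nearest genes to Notch2 were Dock8 (0.08 log2 units), Cd52 (0.13) and Pnpla7 (0.13), and Cd52 is 1 of the 12 pan-leukocyte markers. Dock8 had 12.5, 11.2 and 9.03 FPKM across MI and 0.395, 1.06 and 15.5 FPKM across Normal, the order of libraries seen for Notch2. Nearest to Notch4 were Mmp15 (0.18), Mcf2l (0.19) and Klra9 (0.19), none of them in the pan-endothelial list. Nearest to Dll4 were Sema7a (0.08), Gk5 (0.15) and Arhgap5 (0.16), nearest to Notch1 Chmp7 (0.11), Ndufa10 (0.12) and Gatad1 (0.14), nearest to Hes1 Ccdc127 (0.12), Rapgef1 (0.14) and Csnk2a1 (0.16), and nearest to Hey1 S100a1 (0.24), Tanc1 (0.29) and Cracr2b (0.35). The distance is smaller for genes that vary little, so it does not rank members against each other. Among pairs of members the smallest distances were between Dll4 and Hes1 (0.49), Notch1 and Hes1 (0.51), Notch1 and Dll4 (0.52) and Notch4 and Dll4 (0.56), and the largest between Notch2 and Hey1 (2.56) and Notch2 and Notch4 (2.17).

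Beyond the members, 53 other genes of the pathway were listed by role, of which 53 were in the table and 33 passed the filter. With all 6 libraries 0 of the 33 were called in either direction and 5 were higher and 0 lower at an unadjusted p under 0.05, where 16.1% of tested genes were higher and 0.207% lower. Their median difference was 0.73, against 0.78 for all tested genes. Without Normal Ms1608 0 were called, where 4.45% of tested genes were called higher. At an unadjusted p under 0.05, 10 of the 33 were higher and 0 lower, close to the 30.8% and 0.738% of all tested genes, and the median was 0.72, against 0.83.

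Of the other ligands, 0 of 5 passed the filter, and Dll1, a Delta-like ligand, was at 0.496, 1.74 and 0.496 FPKM across MI and 1.05, 0.278 and 0.189 FPKM across Normal. Of the enzymes that glycosylate the receptor, 4 of 5 were tested, with a median of 1.13, or 0.73 without Normal Ms1608. Mfng, a Fringe glycosyltransferase, had 4.75, 8.51 and 3.97 FPKM against 8.50, 5.42 and 3.16 FPKM, and Lfng, another, was below the filter at 0.281 to 0.933 FPKM in MI and 0.130 to 0.652 FPKM in Normal. Of the proteases that cleave the receptor, 7 of 9 were tested, with a median of 1.04. Adam10, which makes the ligand-dependent cut, had 19.6, 19.7 and 7.83 FPKM against 7.55, 6.98 and 3.57 FPKM (difference 1.20, SE 0.70, limma adjusted p = 0.393), with each MI value above each Normal value. Adam17, a related protease, had 15.3, 21.9 and 11.4 FPKM against 4.53, 5.13 and 13.2 FPKM. Ncstn, a gamma-secretase subunit, was below the filter at 0.919, 0.332 and 1.79 FPKM against 0.161, 0.242 and 0.195 FPKM.

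Of the ubiquitin ligases that act on Notch ligands, 3 of 5 were tested, and Mib1 had 2.06, 5.88 and 1.27 FPKM against 5.20, 0.870 and 4.29 FPKM. Of the nuclear complex, 6 of 9 were tested, with a median of 0.83. Rbpj, the DNA-binding partner of the cleaved receptor, had 16.5, 10.8 and 6.43 FPKM across MI and 2.91, 4.40 and 48.4 FPKM across Normal (difference 0.19, SE 0.99, limma adjusted p = 0.935). Without Normal Ms1608 its difference was 1.33 (SE 0.54, limma adjusted p = 0.139). As with Notch2, its MI values lay between those of Normal Ms1535 and Ms1537 and that of Normal Ms1608. Normal Ms1608 was highest for 6 of the 33 tested genes (Psen2, Psenen, Neurl3, Rbpj, Spen and Itch) and lowest for 20, or 18.2% and 60.6%, against 26.8% and 44.1% of all tested genes. Maml1, a coactivator of the complex, had 1.15, 3.42 and 1.51 FPKM against 0.669, 0.826 and 0.0336 FPKM.

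Of the negative regulators, 7 of 10 were tested, with a median of 0.69. Numb, which promotes removal of the receptor, had 6.28, 10.1 and 5.45 FPKM against 5.72, 6.08 and 1.60 FPKM. Egfl7, a secreted endothelial protein that binds Notch and is also in the pan-endothelial list, had 278, 716 and 207 FPKM against 909, 669 and 5.27 FPKM. Nrarp, a feedback inhibitor and Notch target, was at 0.111 FPKM or less in every library. Of the other targets, 6 of 10 were tested, with a median of 0.39 that turned to -0.27 without Normal Ms1608. Efnb2, the arterial ligand ephrin-B2, had 3.77, 6.63 and 1.00 FPKM against 4.89, 3.45 and 0.0321 FPKM. Gja4, the gap junction protein connexin 37, had 0.0685, 6.70 and 1.91 FPKM against 3.35, 2.87 and 0.0177 FPKM. Hey2, a further Hey family repressor, was below the filter, at 0.473 FPKM in MI Ms1608, 0.0679 FPKM in Normal Ms1535 and 0.0103 FPKM in MI Ms1537, and listed at 0 in the other 3 libraries.

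**Figure D5:**
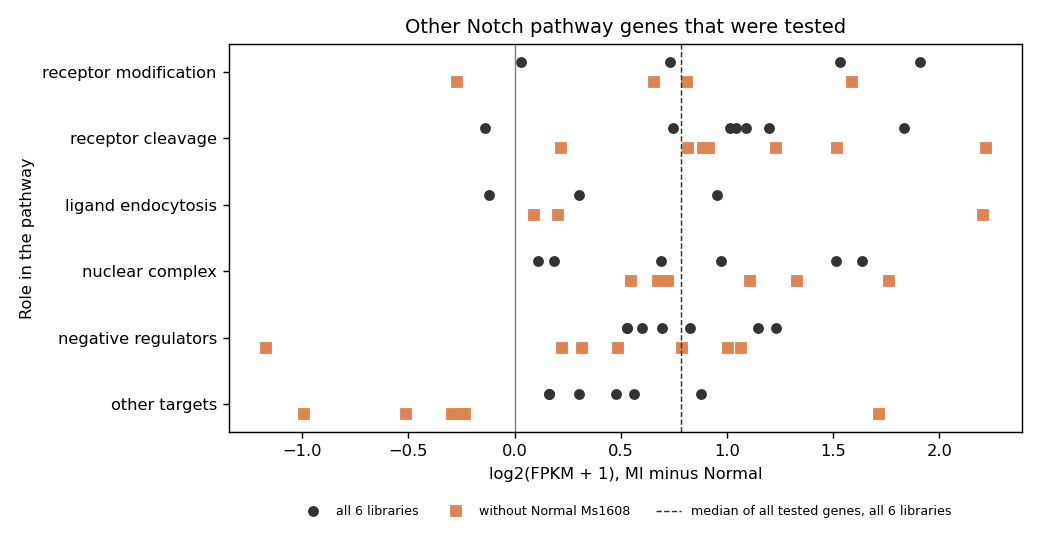
Difference between MI and Normal on the log2(FPKM + 1) scale (x axis) of the 33 tested pathway genes outside the members, by role (y axis), with all 6 libraries (circles) and without Normal Ms1608 (squares), and the median of all tested genes as a dashed line at 0.78. Most circles lie above 0, and the targets other than Myc lie below 0 without Normal Ms1608.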

How the data were processed

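RNA of 6 sorted cell populations was amplified by in vitro transcription before library preparation, per the labels' protocols, which can widen the spread between libraries. The authors deposited FPKM values, 1 column per library, and the tools listed in the submitters' processing notes are Cufflinks 2.2.1, which estimates abundance, and the aligner STAR 2.4.2a, with GRCm38 as the build. The annotation release, strand setting and treatment of multi-mapping reads are not given in the sources used here. Without strand, reads of Notch1, Notch3, Notch4 and Dll4 cannot be told apart from those of genes annotated on the opposite strand within their bounds. Notch2 overlaps Gm42819 (5121 bases) and Gm42820 (3063 bases) on its own strand, which a strand setting would not separate. Notch1 and Jag2 each overlap a microRNA gene on their own strand (61 and 59 bases).

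Positions came from GENCODE release M21 (98.6% of gene identifiers found). Depth was read from genes with 1 transcript longer than 800 bases: FPKM times the length less 180 bases fell within 0.1 of a whole number of fragments for 96.2% to 97.6% of low values, where even spread gives 20%. The totals and the 180 bases were fitted to these values, so this share is no independent check. Fragments of a member use its longest transcript and are approximate.

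Tests covered genes that reached 1 FPKM in 3 or more of the 6 libraries and ran on log2(FPKM + 1) with limma 3.58.1 (R 4.3.3, mean-variance trend, group as the only term, no further scaling), with Benjamini-Hochberg adjustment over 10168 genes and a threshold of 0.05. Differences on this scale understate changes of low genes. An exact two-sided permutation test of 3 against 3 libraries cannot go below p = 0.1. Members, pathway lists, marker lists and the rule for named genes were chosen with earlier results of these data known. That rule took all members, a fixed set of pathway genes and markers, and the 3 nearest genes of each tested member. The nearest genes were taken after the symbols named above were left out. One gene of the fixed pathway set is not reported here. Psen2, Psenen, Neurl3, Spen, Itch and Myc were named after their values were seen. Members below the filter take their differences from a fit without it.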

Additional observations from a re-analysis of the deposited data

How the results depend on the processing

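With all 6 libraries 1 of 10168 tested genes was called, 0 of 6 members and 0 of 33 other pathway genes. Sample weights gave 3288 of the 10168 genes (31.6% of tested genes higher and 0.777% lower). They gave 1 of the 6 members (Notch2). They also gave 10 of the 33 other pathway genes, close to the share of all tested genes. Leaving out 1 library gave 1 to 459 genes called, and 0 to 1 members. The most were called without Normal Ms1608 (4.45% of tested genes higher and 0.0688% lower). Added after the data were seen, combinations without Normal Ms1608 gave 696 genes and 1 member with a pseudocount of 0.1, 98 genes with a pseudocount of 5, 3 with upper-quartile scaling, 2 with median-ratio and with quantile scaling, and 0 with no filter. The cause was not tested. Of 156 alternative values of the members' differences, 38 changed sign, all of them short of the threshold; 3 passed it, all for Notch2. Signs turned under quantile scaling (Notch1 -0.48, Notch3 -0.043, Dll4 -0.56, Jag1 -0.018, Jag2 -0.16, Hes1 -0.44, Hey1 -0.81 and Heyl -0.15), sample weights (Notch3 -0.029, Dll4 -0.31, Hey1 -0.47 and Heyl -0.016), median-ratio scaling (Notch3 -0.074, Dll4 -0.24, Jag2 -0.11, Hes1 -0.50, Hey1 -0.39 and Heyl -0.11), upper-quartile scaling (Notch3 -0.089, Dll4 -0.30, Jag2 -0.11, Hes1 -0.23, Hey1 -0.35 and Heyl -0.13) and pseudocount 0.1 (Notch4 0.12). Leaving out 1 library gave these ranges for members whose sign turned: Notch3 -0.051 to 0.087, Notch4 -0.87 to 0.58, Dll4 -0.34 to 0.49, Jag2 -0.20 to 0.31, Hey1 -0.95 to 1.23 and Heyl -0.034 to 0.62. The members' differences relative to the pan-endothelial markers (exact two-sided permutation p from 0.2 to 1 with a pseudocount of 1 and all 6 libraries) changed sign in 19 of 90 alternatives, under pseudocount 0.1 (Notch1 0.014, Jag1 0.19 and Hey1 0.10) and pseudocount 5 (Hes1 0.13), and over single left-out libraries as Notch1 -0.72 to 1.10, Notch2 -0.41 to 3.38, Notch3 -1.32 to 0.68, Dll4 -0.97 to 0.56, Jag1 -0.82 to 0.96, Jag2 -1.06 to 0.73, Hes1 -0.63 to 1.01, Hey1 -0.59 to 0.57 and Heyl -1.16 to 0.72. Notch4 was at -0.81 with a pseudocount of 0.1 (exact two-sided permutation p = 0.1, the smallest that 3 against 3 libraries can give). Samples with equal numbers are not stated to come from 1 mouse, and their deviations correlated at -0.05, 0.098 and 0.087. With the number as a replicate block, 1 gene, 0 members and 0 other pathway genes were called, and 3 of 6 libraries were closest to their own number. FPKM of low members rest on few fragments in Normal Ms1608, which limits Notch3, Dll4 and Heyl most.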
